A study of Mus musculus with 23 samples.

Results

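Serpins are a large family of proteins, most of which inhibit proteases, and the family was followed here by every probe set whose gene symbol in the platform annotation begins with Serpin. That rule took 59 probe sets of the 45037 on the array that are not controls. Of these, 56 carry 1 symbol and cover 40 genes, of which 12 have more than 1 probe set, and 3 carry several Serpin symbols at once. The 40 genes fall into clades a (14 genes), b (18), c (1), d (1), f (2), g (1), h (1) and i (2), and the letter after Serpin in a gene's symbol is its clade. Serpin genes without a listed symbol were not analysed here.

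The RNA came from colon of C57BL/6J mice, an inbred laboratory strain, aged 12 to 14 weeks. The mice drank water with 3% DSS (dextran sulfate sodium), a polymer that damages the lining of the colon and causes acute colitis. Separate cohorts were taken after 0, 2, 4 and 6 days, with 5 animals at day 0 and 6 at each later day, and each of the 23 arrays holds 1 animal. The day 0 animals are titled as normal colon, no genotype other than the strain is labelled, and neither the stretch of colon nor the layers taken are given in the sources used here.

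An inhibitory serpin presents a loop that its target protease cuts, and the cut traps the protease in a dead complex with the serpin. Clade a serpins are mostly secreted, many of them by liver as plasma proteins, whereas clade b serpins lack a classical signal peptide and act largely inside cells. The smaller clades include inhibitors of clotting (c and d), plasmin (f), complement (g) and plasminogen activators in brain (i). Clade h holds a collagen chaperone that inhibits no protease.

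Signals are intensities per probe set on a linear scale, and changes are differences of mean log2(signal + 16) between days. A probe set was called where the limma test across all 45037 probe sets gave a Benjamini-Hochberg adjusted p of 0.05 or less. Serpin probe sets that were called were all higher on the later day, and none was lower in any of the 5 comparisons made. At day 6 against day 0, 13 of the 59 were called higher (7.7% of all probe sets were), and at day 4 against day 0 there were 7 (4.31% of all). Called lower were 0 of the 59 in both, against 7.59% and 4.33% of all probe sets. At day 2 against day 0 none was called in either direction (0.0133% of all probe sets higher and 0.0422% lower), while 5 of the 59 had an unadjusted p below 0.05, as had 9.52% of all probe sets. Between successive cohorts, day 4 against day 2 gave 4 called higher and 0 lower (2.73% and 2.54% of all), and day 6 against day 4 gave 1 higher and 0 lower (3.94% and 4.74% of all). The comparisons with day 0 share its 5 arrays. In bulk tissue, more cells of a type and more RNA per cell cannot be told apart.

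By gene, taking the brightest probe set of each, 11 of 40 Serpin genes were higher at day 6 (11.7% of all genes were called higher) and 5 of 40 at day 4 (6.99% of all genes). The median change over the 59 probe sets was 0.42 at day 6 and 0.17 at day 4, beside 0.02 and 0.03 over all probe sets. Between day 6 and day 0, 9 Serpin probe sets had no overlap between the days, all higher at day 6, as 4.74% of all probe sets had. Many members were dim: 28 of the 59 never exceeded the median of their own array on any array, and their highest signal was 102.5. None of those 28 was called at day 6, and their changes lay between -0.63 and 0.77.

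**Figure D1:**
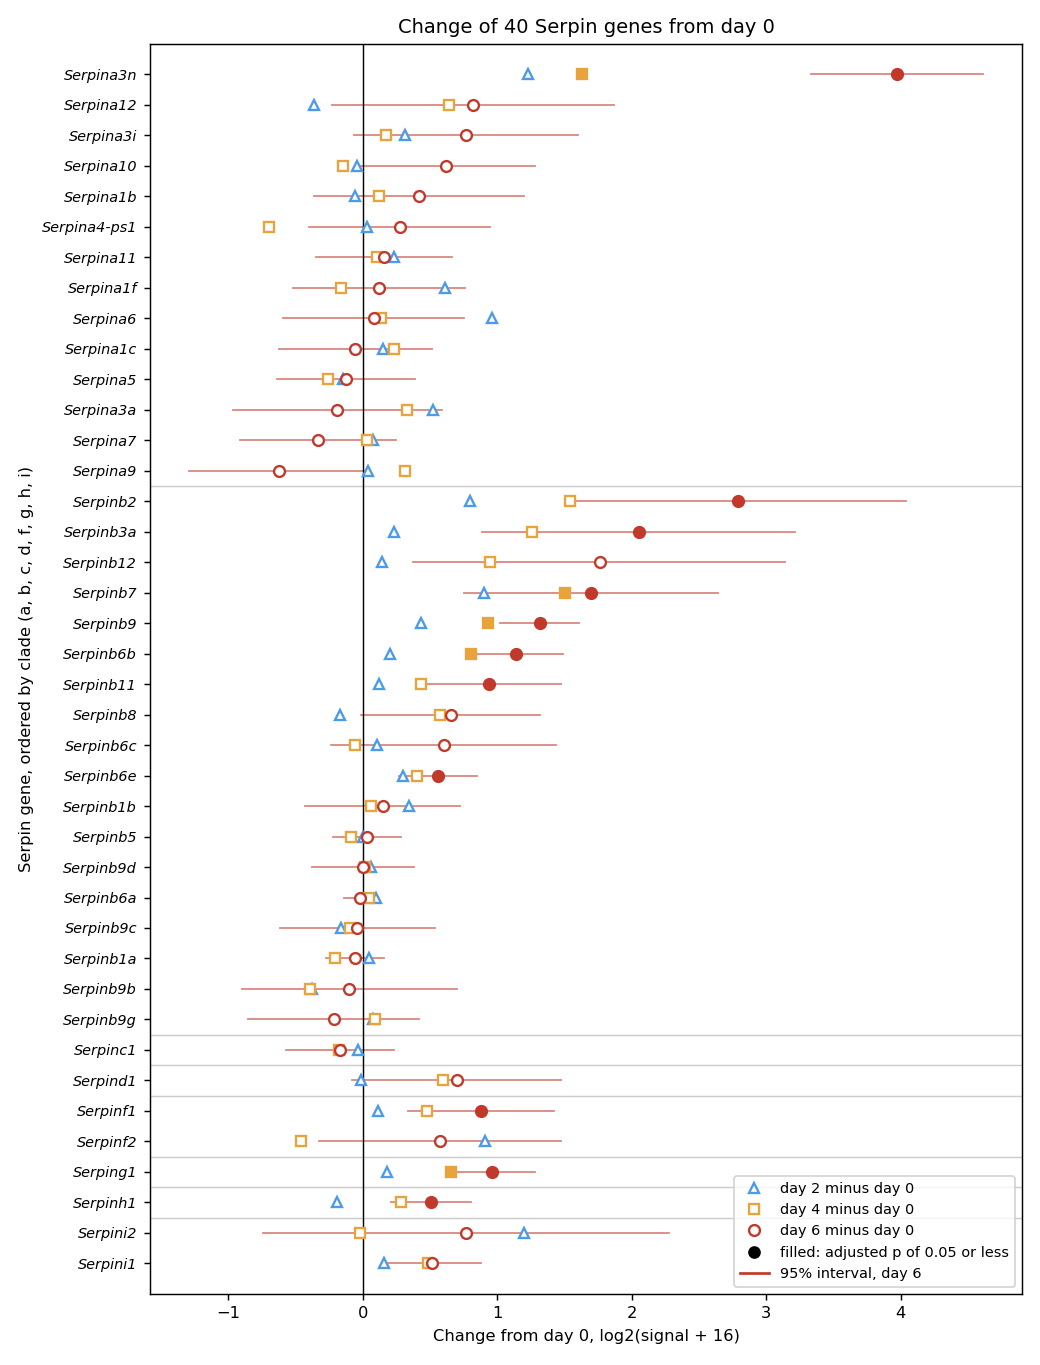
Change of each of 40 Serpin genes from day 0 on the log2(signal + 16) scale, by clade, at days 2 (triangles), 4 (squares) and 6 (circles). Filled symbols passed the adjusted p of 0.05, and lines are 95% intervals at day 6. The filled circles are the 11 genes called at day 6, all to the right of 0, with Serpina3n farthest at 3.97.

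The arrays differed in ways that touch these genes. A sum over 17 measured markers of squamous epithelium, of 18 listed, lay at 10040 to 18440 on the day 0 arrays, 1405 to 30460 at day 2, 1492 to 42600 at day 4 and 29500 to 66010 at day 6, and each of the 17 exceeded the median of its own array at least once. The 2 lowest sums were on day 2 mouse 8 and day 4 mouse 8. Skeletal muscle markers (12 measured) were low on the same arrays, with sums of 1590 and 1470, against 3901 to 91230 on the other 21 arrays. Exocrine pancreas markers (12 measured) summed to 312300 on day 2 mouse 6 and 82020 on day 6 mouse 1, and to 11920 at most on the other 21 arrays. The log2 ratio of 3' to 5' beta-actin controls, a measure of RNA integrity, was 0.53 to 0.70 at day 4 and 0.48 to 0.59 at day 6, above all day 0 arrays (0.40 to 0.45). That of Gapdh was -0.27 to -0.18 at day 4 and -0.30 to -0.19 at day 6, also above all day 0 arrays (-0.46 to -0.33), and the part of RNA integrity in the serpin values was not tested. The mean log2 signal of the bacterial and phage hybridization controls was 10.8 to 11.13 at day 4 and 10.65 to 11.12 at day 6, below all day 0 arrays (11.33 to 11.49). With these controls as a covariate 2 Serpin probe sets were called at day 6 and 1 at day 4. Those at day 6 were of Serpina3n (limma adjusted p = 0.000833) and Serpinb9 (0.00446), and that at day 4 was of Serpinb9 (0.0433). Among the genes that lost their day 6 call were Serping1 (adjusted p = 0.139), Serpinb6b (0.113) and Serpinb6e (0.273). That covariate itself separates days 4 and 6 from day 0, so its part and the day's cannot be told apart.

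Promoters of 3 of the called genes are printed because they were the genes of largest change in clade a (Serpina3n) and clade b (Serpinb2) and the clade b gene with the lowest adjusted p (Serpinb9). They are from RefSeq, build GRCm38.p6, and run from 250 bases before to 50 bases after the annotated start, all on the plus strand. Capitals mark matches, on either strand, to TTCNNNGAA (the STAT site), to GGGA and CC with any 4 bases between them (a loose form of the NF-kB site), to TGANTCA (the AP-1 site) and to a pair of GAAA with any 2 bases between them (an interferon response motif). Serpina3n lies at chr12:104406458-104406757, Serpinb2 at chr1:107511173-107511472 and Serpinb9 at chr13:33004291-33004590.
Serpina3n: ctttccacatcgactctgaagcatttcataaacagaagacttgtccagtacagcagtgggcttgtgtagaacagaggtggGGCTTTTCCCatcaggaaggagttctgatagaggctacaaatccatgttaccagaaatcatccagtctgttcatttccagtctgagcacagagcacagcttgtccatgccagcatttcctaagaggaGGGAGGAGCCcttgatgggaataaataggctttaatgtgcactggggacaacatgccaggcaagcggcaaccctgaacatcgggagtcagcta
Serpinb2: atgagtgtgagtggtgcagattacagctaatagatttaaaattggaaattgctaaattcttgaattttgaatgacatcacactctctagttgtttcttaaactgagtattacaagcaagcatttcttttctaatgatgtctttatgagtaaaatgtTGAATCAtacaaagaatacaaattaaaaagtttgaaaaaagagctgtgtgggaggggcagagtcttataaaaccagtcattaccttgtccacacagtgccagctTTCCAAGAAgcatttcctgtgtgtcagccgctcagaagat
Serpinb9: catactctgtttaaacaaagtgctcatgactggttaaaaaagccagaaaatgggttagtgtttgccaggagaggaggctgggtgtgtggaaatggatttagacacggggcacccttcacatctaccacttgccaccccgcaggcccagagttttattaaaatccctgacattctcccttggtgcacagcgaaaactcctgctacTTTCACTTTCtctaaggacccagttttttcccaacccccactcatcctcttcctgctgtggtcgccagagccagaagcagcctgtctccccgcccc
The Serpina3n window holds 2 NF-kB matches, beginning at bases -170 and -43 counted from the start. The Serpinb2 window holds an AP-1 match at -94 and a STAT match at 10, and Serpinb9 holds an interferon response match at -46. No marked match overlaps another. Taking the first listed promoter of each gene, 27025 of the same length in all, 8.47% hold the STAT letters, 20.5% those of NF-kB, 7.93% those of AP-1 and 3.49% those of the interferon response motif. Of 34 Serpin genes with a promoter entry, the counts by first promoter were 6, 7, 8 and 3, and of the 10 called genes with one they were 1, 2, 3 and 1. Serping1 has no entry. A match is only a run of letters and shows no binding.

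Serpina3n, a secreted acute phase serpin related to human antichymotrypsin and known in the mouse to inhibit granzyme B, had the largest change of the family. Its probe set 1419100_at had signals of 128.1, 201.3, 221.6, 281.4 and 161.9 on the 5 day 0 arrays. The lowest, median and highest were 312.8, 504.3 and 618.5 at day 2, 445.2, 719.9 and 759.8 at day 4, and 1449, 3665 and 6894 at day 6. Every array of each later day lay above every day 0 array, and days 2 and 4 overlapped. The change from day 0 was 3.97 ± 0.31 at day 6 (SE, 15.7-fold, limma adjusted p = 3.58e-09) and 1.63 ± 0.31 at day 4 (adjusted p = 0.0014). At day 2 it was 1.23 ± 0.31 (adjusted p = 0.153), not called although the days did not overlap. Serpina3n was also the Serpin probe set called between day 6 and day 4 (2.34 ± 0.30, adjusted p = 1.53e-05).

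The rest of clade a was not called. Of its 20 probe sets 17 never exceeded their array's median, including those for the antitrypsin genes Serpina1b, Serpina1c and Serpina1f, which encode the main plasma inhibitor of neutrophil elastase or its close copies. Serpina3a and Serpina3i, paralogs of Serpina3n, and Serpina6, the plasma carrier of glucocorticoids, were also among them. Serpina12, known as the adipokine vaspin, exceeded it on 4 arrays and differed by 0.82 ± 0.51 at day 6 (adjusted p = 0.335). Serpina10, an inhibitor of clotting factor Xa and XIa, exceeded it on 2 arrays, both at day 6, and differed by 0.61 ± 0.32 (adjusted p = 0.23). The clade's median change at day 6 was 0.14. Many clade a genes are close copies, so a probe set may read more than 1 of them.

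Serpina3n was set beside an acute phase list of 20 measured genes other than serpins. The list also holds cytokine, receptor and signalling genes (Il6, Il1b, Tnf, Osmr, Socs3 and Stat3). Of the 20, 6 never exceeded their array's median (Apcs, Crp, Hpx, Orm2, Orm3 and Saa4). At day 6, 12 of the 20 were called higher and 0 lower, with a median change of 1.43, where 11.7% of all genes were called higher. The largest of these changes were in Saa3, an inflammation-induced serum amyloid A (4.92 ± 0.37, adjusted p = 1.43e-09), the cytokine gene Il6 (4.92 ± 0.32, adjusted p = 1.43e-10) and the haptoglobin gene Hp (3.98 ± 0.62, adjusted p = 5.68e-05). Relative to the day 0 median, the median signal of Serpina3n was 2.51, 3.58 and 18.2 times as high at days 2, 4 and 6. The same ratios were 1.52, 4.00 and 42.3 for Saa3 and 0.671, 0.631 and 21.4 for Hp. Hepatocytes make many of these proteins, and their markers had 0 of 12 called higher and 3 called lower at day 6 (Ttr, Cps1 and Hpd). Of all 18193 genes, 1530 were called lower. Ahsg, Apoa1 and Fabp1 never exceeded their array's median. The median change of the 12 hepatocyte markers was 0.007. Their sum was 4322 to 6505 at day 6, against 7413 to 10430 at day 0. Whether liver had a part in the acute phase values was not tested.

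**Figure D2:**
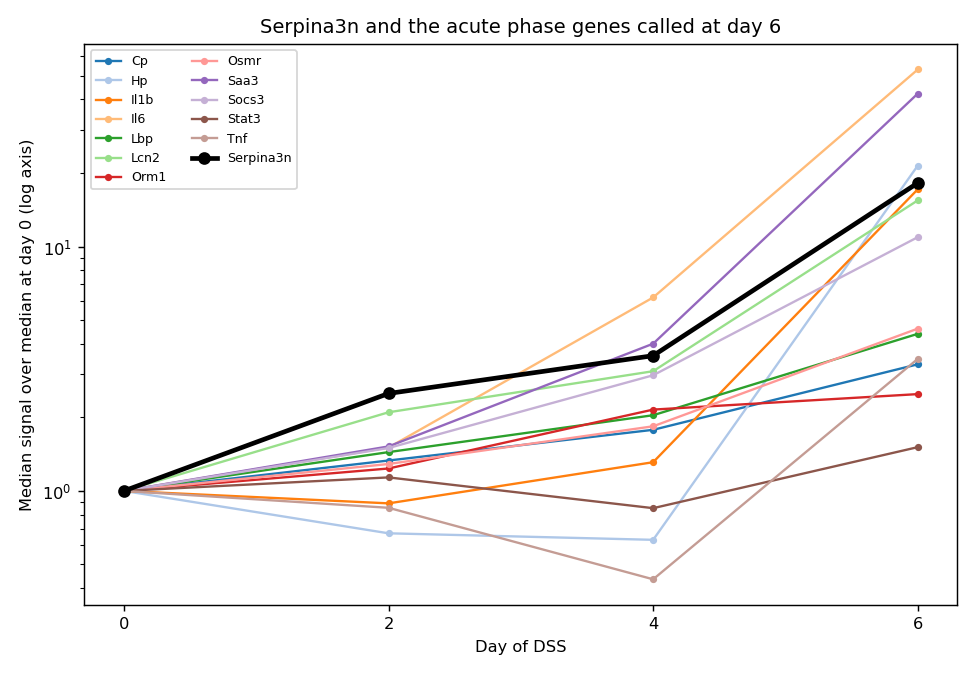
Median signal at each day divided by the median at day 0, on a log axis, for Serpina3n (thick black line) and 12 other genes. These are the genes of the acute phase list, cytokine and signalling genes included, that were called higher at day 6. Serpina3n reached 2.51 at day 2, 3.58 at day 4 and 18.2 at day 6, between Hp (21.4) and Il1b (17.2) on the last day.

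Clade b, the intracellular serpins, supplied 8 of the 13 probe sets called at day 6 and 4 of the 7 at day 4, out of 27 probe sets. Of all probe sets, 7.7% were called higher at day 6 and 4.31% at day 4. Clade b also held 17 of the 25 Serpin probe sets that exceeded their array's median on at least 5 arrays. In the mouse the clade b genes lie in clusters on chromosomes 1 and 13. Of 7 genes on chromosome 1, 4 were called higher at day 6 and the median change was 1.70. Of 11 genes on chromosome 13, 3 were called higher and the median was 0.00, where 11.7% of all genes were called higher. Of these 11 genes 6 never exceeded their array's median, against 0 of the 7 on chromosome 1. These counts, and that of at least 5 arrays, take all days together. On chromosome 1, Serpinb2, Serpinb7 and Serpinb11 exceeded the median on 0 of the 5 day 0 arrays, and so only on later days. By probe set the median changes were 0.56 on chromosome 1 and 0.25 on chromosome 13. The difference between these clusters was not tested.

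The chromosome 1 genes are known mostly from stratified and other epithelia. Serpinb2, an inhibitor of plasminogen activators, had signals of 31.55, 66.48, 40.84, 56.54 and 32.45 on the day 0 arrays, each below the median of its array. The lowest, median and highest were 0.745, 142 and 166 at day 2, 10.8, 242 and 277.5 at day 4, and 166.1, 396 and 1494 at day 6. All day 6 arrays lay above all day 0 arrays, while at days 2 and 4 the array of mouse 8 lay below day 0. The change was 2.79 ± 0.61 at day 6 (SE, 6.91-fold, adjusted p = 0.00195) and 1.54 ± 0.61 at day 4 (adjusted p = 0.125).

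Serpinb3a, of the squamous cell carcinoma antigen group, was read by an _x_at probe set, a type that can match related transcripts. Its lowest, median and highest signals were 43.05, 96.5 and 125 at day 0, 20.9, 109 and 252 at day 2, 5.25, 344 and 482 at day 4, and 241, 419 and 507 at day 6. Day 6 did not overlap day 0 and the change was 2.05 ± 0.57 (adjusted p = 0.013). Serpinb7, known as megsin, was dim, at 44.9, 84.2 and 269 at day 6, against 1.64, 32.96 and 66.2 at day 0 (change 1.70 ± 0.46, adjusted p = 0.0115), and these days overlapped. It was also called at day 4 (1.50 ± 0.46, adjusted p = 0.041), with signals of 12.8, 107 and 188, a call that was lost without any one of 8 arrays of days 0 and 4 (adjusted p up to 0.133). Because it is dim, its change at day 6 was 2.73 with a pseudocount of 1 and 0.96 with 64. Serpinb11, an epithelial serpin, had 69.6, 149 and 217 at day 6, against 53.0, 61.3 and 77.2 at day 0 (change 0.94 ± 0.26, adjusted p = 0.0135), and these days also overlapped.

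The squamous and the skeletal muscle marker sums were both lowest on the arrays where Serpinb2, Serpinb3a and Serpinb12 were lowest. On day 2 mouse 8 and day 4 mouse 8, where the squamous sum was 1405 and 1492, Serpinb2 was at 0.745 and 10.8, Serpinb3a at 20.9 and 5.25, and Serpinb12, an inhibitor of trypsin-like proteases, at 15.9 and 2.48. Serpinb9 and Serpina3n were not low there, at 460 and 540 for Serpinb9 and 393.5 and 478.5 for Serpina3n. Of the 17 squamous markers 5 were called higher and 0 lower at day 6 (median change 1.63). Of all genes, 11.7% were called higher and 1530 of 18193 lower. Among the 5 were the keratin genes Krt6b (2.56 ± 0.75, adjusted p = 0.0201), Krt6a (2.40 ± 0.82, adjusted p = 0.0466) and Krt14 (2.33 ± 0.65, adjusted p = 0.0144). With the mean of the squamous markers as a covariate, Serpinb2 kept its call at day 6 (1.46, adjusted p = 0.00382), while Serpinb3a (0.79, adjusted p = 0.0715), Serpinb7 (0.93, adjusted p = 0.131) and Serpinb11 (0.61, adjusted p = 0.137) did not. No day 6 array had a squamous sum within the day 0 range, so the part of that covariate and the day's cannot be told apart.

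Serpinb12 had 381, 545 and 761 at day 6, against 122, 141 and 186 at day 0, without overlap (1.76 ± 0.67), yet its adjusted p was 0.0814. Without the 4 arrays named above for their squamous or pancreatic sums, the change was 1.85 ± 0.24 (adjusted p = 1.01e-05). The arrays left out for low squamous sums were also the lowest for Serpinb12 (15.9 and 2.48). Neither was of day 0 or day 6. The change moved little, from 1.76, while its SE fell from 0.67 to 0.24. That adjusted p depends on the choice of arrays, so it cannot be taken as a call. With the squamous covariate the change was 0.17 ± 0.24 (adjusted p = 0.742). Serpinb12 is described here after its values were seen. Serpinb5, known as maspin and expressed in epithelia, was bright on all 23 arrays and differed by 0.03 ± 0.12 at day 6 (95% interval -0.22 to 0.29). Its other probe sets differed by -0.11, -0.12 and -0.24, and none was called (adjusted p of 0.273 or more). Serpinb8, an inhibitor of furin, differed by 0.65 ± 0.32 (adjusted p = 0.202).

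**Figure D3:**
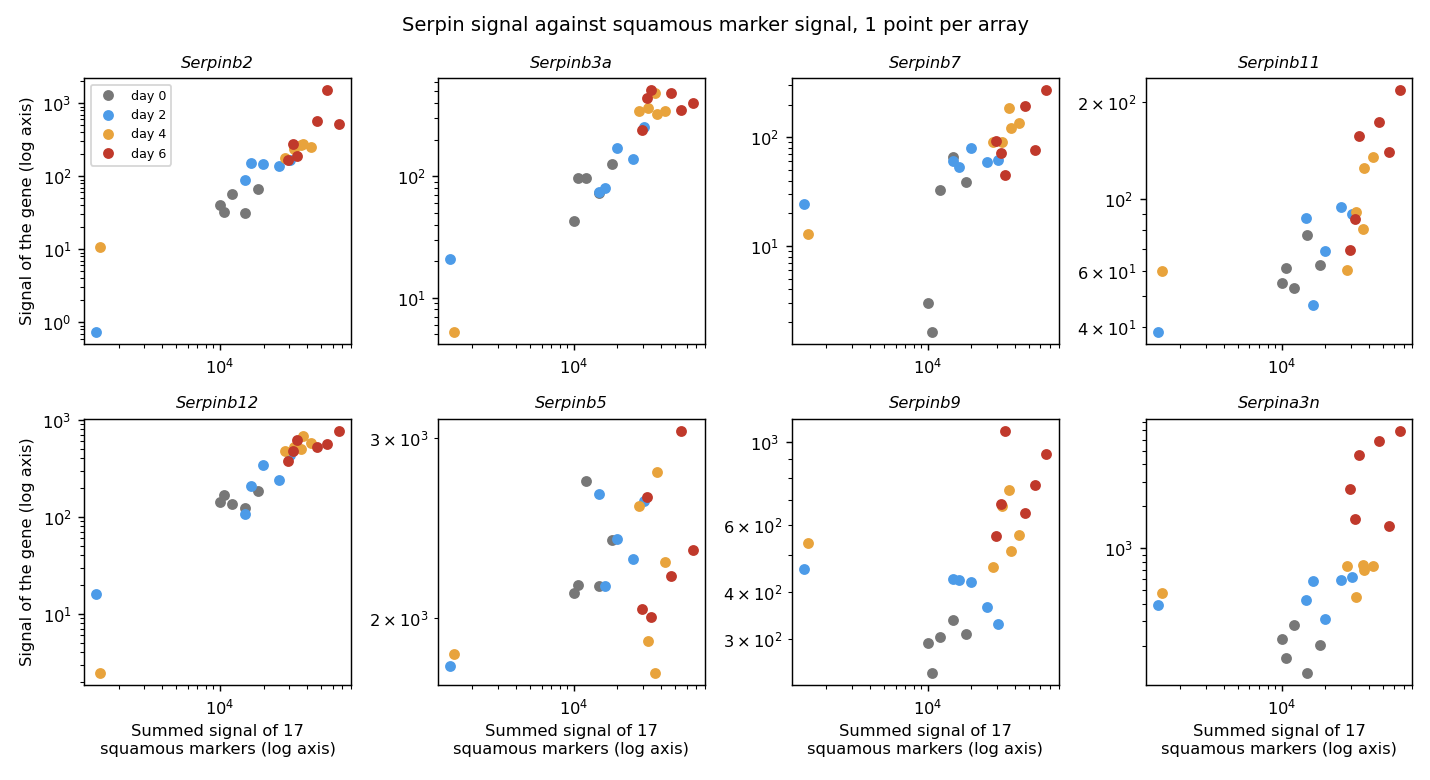
Signal of 8 Serpin genes against the summed signal of 17 squamous markers, 1 point per array, both axes logarithmic and points coloured by day. The arrays at 1405 and 1492 (mouse 8 of days 2 and 4) are the 2 lowest for Serpinb2, Serpinb3a and Serpinb12, but not for Serpinb9 (460 and 540).

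Among the chromosome 13 genes, Serpinb9, an intracellular inhibitor of granzyme B that protects cells from cytotoxic granules, had the lowest adjusted p of the clade. Its brightest probe set, 1422601_at, had signals of 335.8, 307.5, 291.6, 303.0 and 243.6 at day 0. The lowest, median and highest were 328, 426 and 460 at day 2, 465.6, 553 and 747 at day 4, and 563, 726 and 1066 at day 6. Days 4 and 6 lay wholly above day 0, and day 4 wholly above day 2. The change from day 0 was 1.32 ± 0.14 at day 6 (SE, 2.49-fold, adjusted p = 3.66e-07), 0.93 ± 0.14 at day 4 (adjusted p = 0.00019) and 0.43 ± 0.14 at day 2 (adjusted p = 0.286). Day 4 exceeded day 2 by 0.50 ± 0.14 (adjusted p = 0.0307), a call lost without any one of 6 arrays of those days (adjusted p up to 0.088). Its second probe set, 1439790_at, was called too, at 0.72 ± 0.20 at day 6 (adjusted p = 0.0126) and 0.64 ± 0.20 at day 4 (adjusted p = 0.0444). The paralogs Serpinb9b, Serpinb9c, Serpinb9d and Serpinb9g never exceeded their array's median.

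Markers of T and NK cells, the cells that release granzymes, had 1 of 9 called higher at day 6, where 11.7% of all genes were. That marker was Cd4 (1.31 ± 0.36, adjusted p = 0.0122), and 3 (Cd2, Ncr1 and Prf1, the perforin gene) never exceeded their array's median. The sum of the 9 was 535.7 to 1788 at day 6, against 409 to 519 at day 0, and the day 6 arrays other than mouse 29 reached 738.6 at most. Monocyte and macrophage markers had 13 of 14 called higher at day 6, with a sum of 25440 to 49150, against 11960 to 17080 at day 0. Whether either cell type had a part in the Serpinb9 values was not tested.

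Serpinb6b, a paralog of the cathepsin G inhibitor Serpinb6a, had 173, 268 and 348 at day 6 and 169, 200.5 and 245 at day 4, against 87.5, 96.4 and 141 at day 0. Both later days lay wholly above day 0, with changes of 1.14 ± 0.17 at day 6 (adjusted p = 3.49e-05) and 0.81 ± 0.17 at day 4 (adjusted p = 0.00344). Day 4 also lay wholly above day 2 (0.61 ± 0.16, adjusted p = 0.03, up to 0.0856 without 1 array). Serpinb6e, another paralog read by an _x_at probe set, had 243, 324 and 492 at day 6, against 186.5, 214 and 254 at day 0 (0.56 ± 0.14, adjusted p = 0.0065), with overlap. Serpinb6a itself differed by -0.02 ± 0.06 at day 6 (95% interval -0.14 to 0.10).

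Serpinb1a, the inhibitor of neutrophil elastase, cathepsin G and proteinase 3, was bright on every array. It had 8928, 11190 and 11940 at day 6, against 9904, 11080 and 11970 at day 0. The change was -0.06 ± 0.10 (adjusted p = 0.795, 95% interval -0.27 to 0.16), and its second probe set, 1448301_s_at, differed by 0.25 ± 0.16 (adjusted p = 0.348). Neutrophil markers (11 measured, of which Camp was never above its array's median) had a sum of 2671 to 14450 at day 6, against 540 to 1047 at day 0. On the same arrays 7 of the 11 were called higher at day 6, where 11.7% of all genes were. The largest were S100a9 (5.46 ± 0.54, adjusted p = 9.84e-08) and S100a8 (4.99 ± 0.48, adjusted p = 8.34e-08), which encode subunits of calprotectin.

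**Figure D4:**
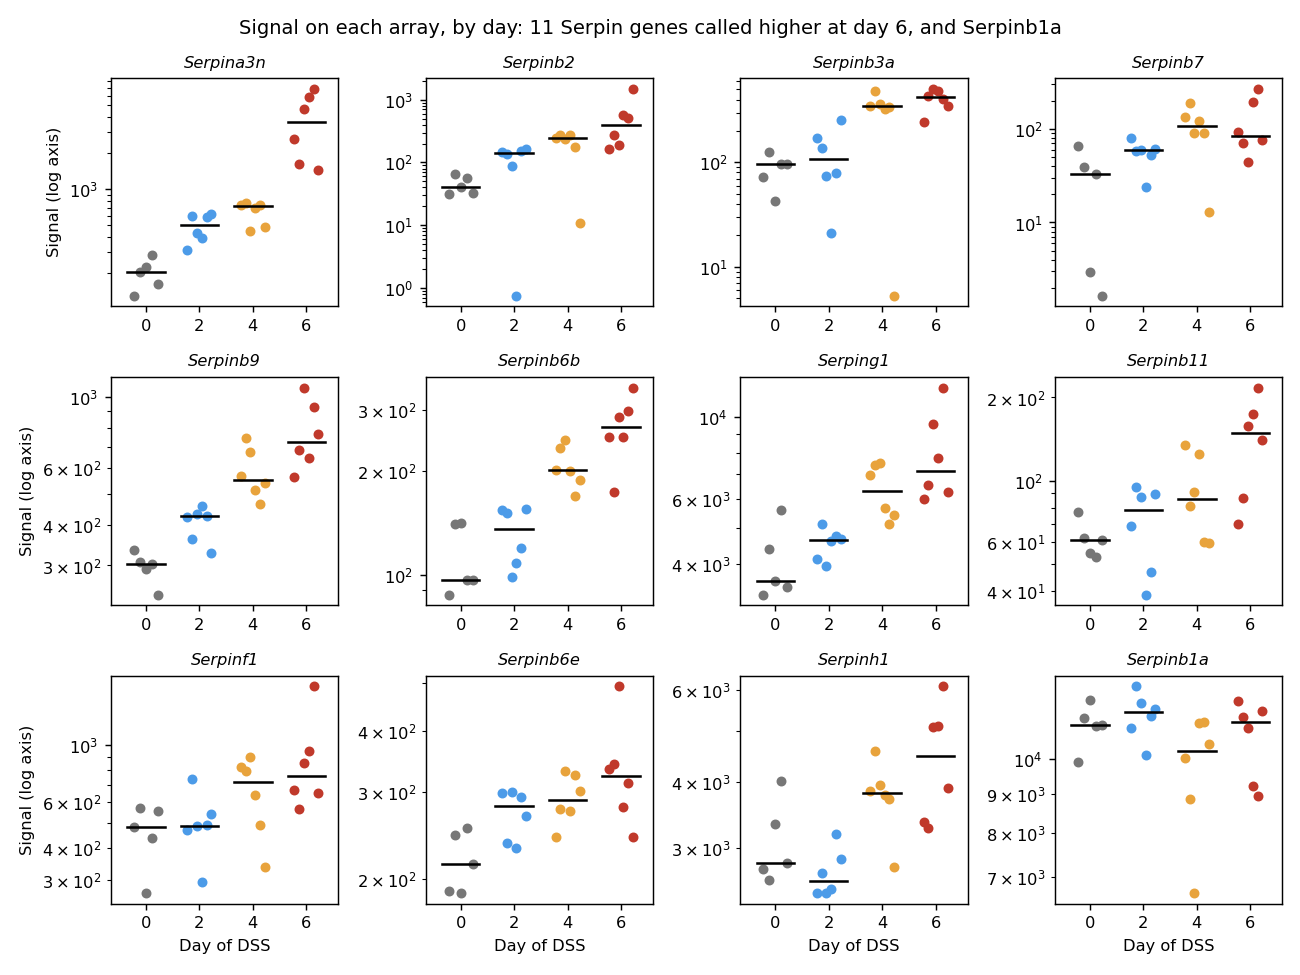
Signal on each array by day, on log axes, for the 11 Serpin genes called higher at day 6 and for Serpinb1a, with 1 point per array and bars at the median. Serpina3n reached 1449 to 6894 at day 6, the Serpinb9 medians were 303, 426, 553 and 726 at days 0, 2, 4 and 6, and Serpinb1a stayed between 6652 and 12470 on all arrays.

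The smaller clades hold plasma and matrix serpins. Serping1, which encodes the inhibitor of the first complement complex and of plasma kallikrein, had 5981, 7163 and 12020 at day 6 and 5146, 6314 and 7501 at day 4, against 3304, 3598 and 5602 at day 0. Day 6 lay wholly above day 0 (0.96 ± 0.15, 1.94-fold, adjusted p = 8.08e-05), and day 4 overlapped it (0.65 ± 0.15, adjusted p = 0.00819). At day 2 the change was 0.18 ± 0.15 (adjusted p = 0.77).

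Serpinf1, the secreted antiangiogenic protein PEDF that inhibits no protease, had 565, 760 and 1692 at day 6, against 266, 481.5 and 572 at day 0. The change was 0.88 ± 0.26 (adjusted p = 0.0227), a call lost without day 0 mouse 3 or without day 6 mouse 21 (adjusted p up to 0.0918) and with the squamous covariate (0.43, adjusted p = 0.236). Squamous sums of day 6 and day 0 did not overlap, so the part of that covariate and the day's cannot be told apart. The second Serpinf1 probe set, 1453724_a_at, differed by 1.43 ± 0.55 (adjusted p = 0.0809). Serpinf2, the plasmin inhibitor, exceeded its array's median on 4 arrays only. It had 9.49, 19.9 and 98.3 at day 4, against 73.6, 85.5 and 152 at day 2 (-1.36 ± 0.42, adjusted p = 0.0545), the most negative Serpin difference in any comparison, and the days overlapped.

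Serpinh1, the collagen chaperone of the endoplasmic reticulum, had 3265, 4495 and 6090 at day 6, against 2608, 2801 and 4020 at day 0 (0.51 ± 0.14, adjusted p = 0.0164). It was also higher at day 4, with 2752, 3816 and 4578, than at day 2, with 2455, 2594 and 3184 (0.47 ± 0.14, adjusted p = 0.043), a call lost without any one of 10 arrays of those days (adjusted p up to 0.111). The day 6 call was lost with the squamous covariate (adjusted p = 0.131), and without day 0 mouse 2 or day 6 mouse 21 (adjusted p up to 0.0546). As for Serpinf1, the part of that covariate and the day's cannot be told apart. The second probe set, 1456733_x_at, gave 0.65 ± 0.13 at day 6 (adjusted p = 0.000699), 0.43 ± 0.13 at day 4 (adjusted p = 0.035) and 0.60 ± 0.12 for day 4 against day 2 (adjusted p = 0.00643). Fibroblast and matrix markers had 12 of 12 called higher at day 6, where 11.7% of all genes were. Their sum was 62030 to 101600 at day 6, against 42080 to 51440 at day 0, and each of them was above its array's median at least once. Pdpn (1.71 ± 0.13), Thy1 (1.19 ± 0.16) and Lum (1.12 ± 0.15) changed most, with adjusted p of 2.59e-09, 6.66e-06 and 1e-05. The part of fibroblast number in Serpinh1, Serpinf1 and Serping1 was not tested.

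The antithrombin gene Serpinc1 never exceeded its array's median and differed by -0.17 ± 0.20 at day 6 (adjusted p = 0.645). Serpind1, heparin cofactor II, exceeded it on 1 array and differed by 0.70 ± 0.38 (adjusted p = 0.252). Serpini1, neuroserpin, an inhibitor of tissue plasminogen activator made by neurons, had 153 to 238 at day 6, against 91.8 to 160 at day 0. This brightest probe set was not called (0.51 ± 0.18, adjusted p = 0.0528). Its other probe sets differed less, 1416702_at by 0.28 ± 0.19 (adjusted p = 0.369) and the dim 1443756_at by 0.23 ± 0.34 (adjusted p = 0.744). Enteric neuron and glia markers had 5 of 10 called higher at day 6, where 11.7% of all genes were. Serpini2, a serpin known from pancreas, was at 1766 on day 2 mouse 6 and 115.0 on day 6 mouse 1, the 2 arrays with high pancreatic marker sums, and at 47.1 at most on the others.

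Of 35 measured proteases that serpins are known to control, 9 were called higher and 1 lower at day 6, with a median change of 0.53, and 11 never exceeded their array's median. The largest increases were in the skin kallikrein genes Klk5 (1.70 ± 0.50, adjusted p = 0.0206) and Klk6 (1.68 ± 0.35, adjusted p = 0.00132) and in Prtn3, which encodes proteinase 3 of neutrophils (1.57 ± 0.40, adjusted p = 0.0067). Of 19 cofactors of clotting and plasmin formation, 6 were called higher and 1 lower, led by F13a1, a fibrin-crosslinking factor subunit (1.20 ± 0.23, adjusted p = 0.000611), the urokinase receptor gene Plaur (0.96 ± 0.21, adjusted p = 0.0024) and Vtn, which encodes vitronectin (0.86 ± 0.28, adjusted p = 0.0328). Of 30 protease inhibitors of other families, 13 were called higher and 4 lower. These included Wfdc12, a whey acidic protein domain inhibitor (3.25 ± 0.46, adjusted p = 1.4e-05), Timp1, an inhibitor of metalloproteinases (2.87 ± 0.21, adjusted p = 7.58e-10), and Stfa3, a cysteine protease inhibitor of the stefin family (2.30 ± 0.70, adjusted p = 0.0236). At day 4 these lists of 35, 19 and 30 genes had 1, 1 and 5 called higher and none lower. Of all genes, 11.7% were called higher at day 6 and 6.99% at day 4. Called lower against day 0 were 1530 of 18193 genes at day 6 and 427 at day 4.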

How the data were processed

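Colon RNA of 23 mice was measured with 1 Affymetrix array each, labelled from 5 µg of total RNA. The authors deposited 1 linear intensity for each probe set and array, computed with MAS5 per the submitters' processing notes. Means trimmed by 2% at both ends equalled 500 on every array, so no further scaling was applied. Symbols came from the platform annotation, which can be old (34945 probe sets with 1 symbol, 932 with several, 9160 with none). All 45037 probe sets other than 64 controls entered 1 limma fit (3.58.1, R 4.3.3, mean-variance trend) of log2(signal + 16) on day, with 5 two-sided contrasts adjusted by the Benjamini-Hochberg method. A change on this scale understates that of dim genes. No filter was used. Numbers with ± are a change and its SE. The fit was tested on simulated data. A gene was described by its brightest probe set, and named genes were the 10 largest called increases at day 6, the largest at other contrasts, the brightest gene of each clade and up to 3 genes of each list. Members, lists and tests were chosen with earlier results of these data known. Alternatives were other pseudocounts and scalings, a filter, no trend, fits by gene, mouse number as a block, left-out arrays and 2 covariates added after seeing the data (hybridization controls and squamous markers). Equal mouse numbers are not stated to pair arrays, and the main fit used no pairing. The number of arrays limits the precision. Promoter sequences are from RefSeq (GRCm38.p6).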

Additional observations from a re-analysis of the deposited data

Results flagged for a closer look

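In 60 tested sets of arrays, each the arrays of 1 named Serpin gene on 1 day, Dixon's test set 4 values apart from the rest, and chance alone marks about 1 set in 20. All 4 were low values on an array of mouse 8. Serpinb2 was at 0.745 on day 2 mouse 8, where the next lowest day 2 array had 87.8, and at 10.8 on day 4 mouse 8, where the next had 178. Serpinb3a was at 5.25 on day 4 mouse 8, with the next at 324. Serpinb7 was at 12.8 on the same array, with the next at 89.7. These are the 2 arrays with the lowest squamous marker sums.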

How the results depend on the processing

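With mouse number as a replicate block, the numbers of Serpin probe sets called were 7 at day 4 and 13 at day 6 against day 0, 4 for day 4 against day 2 and 2 for day 6 against day 4, against 1 in the last without the block, and no other count changed. Same-numbered arrays of different days deviated together little on average (17 pairs, mean r 0.0789, from -0.15 to 0.693). The mean was -0.00636 for arrays with different numbers. These values do not settle whether some numbers pair arrays, and the main fit used no pairing. No Serpin was called at day 2 under any alternative. For day 4 against day 0, the fit on the mean of each gene's probe sets gave 4 genes, beside 5 genes by brightest probe set as reported. Instead of 7 probe sets, the hybridization control covariate gave 1, and leaving out 1 array 4 to 9 (under 5 without day 0 mouse 5 or day 4 mouse 1, 3 or 4). For day 6 against day 0 (13), that covariate gave 2, and leaving out 1 array 11 to 15. For day 4 against day 2 (4), median centring gave 2, a fit without the trend 2, the hybridization covariate 0, and leaving out 1 array 1 to 7 (changed by over 1.5 times without day 2 mouse 6, 7, 8, 17 or 52 or day 4 mouse 1, 3, 4 or 8). For day 6 against day 4 (1), leaving out 1 array gave 1 to 3. The count was 2 with a pseudocount of 1, quantile normalization, median centring, either covariate, or without the 4 arrays that stand apart. The fits by gene counted genes, with 2 by the mean of probe sets and 3 by the brightest probe set, beside 1 gene as reported. No named gene that was called turned direction under any alternative. Median centring gave 2412 probe sets of all higher and 4676 lower at day 6, beside 3469 and 3417 as reported. Median centring also ended the call of Serpinh1 at day 6, and the call of Serpini1 appeared under 5 of the 12 settings other than left-out arrays. Signals below the array's median limit Serpinb2, Serpinb7 and Serpinb11 at day 0.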

Other observations

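Other cell types of the colon were followed by the same kind of marker list, and the serpin values above stand beside them. Among all genes, 11.7% were called higher at day 6 and 6.99% at day 4, both against day 0. Of all 18193 genes, 1530 were called lower at day 6 against day 0, and 1376 at day 6 against day 4. Endothelial markers had 7 of 12 called higher at day 6 and 8 at day 4, led at day 6 by Sox17, a transcription factor of arterial endothelium (1.41 ± 0.20, adjusted p = 2.14e-05). Smooth muscle markers had 5 of 8 called higher at day 4 against day 0, while at day 6 their median change from day 0 was -0.09 with none called by limma, and 4 were lower at day 6 than at day 4. Colon epithelium markers had 0 of 12 called higher and 3 lower at day 6, with the largest fall in Aqp8, a water channel of surface colonocytes (-1.23 ± 0.27, adjusted p = 0.00194). Mast cell markers had 2 of 10 called higher, Hdc (2.74 ± 0.30, adjusted p = 3.72e-07) and Fcer1a (1.32 ± 0.34, adjusted p = 0.0089), of which Fcer1a, like Ms4a2 and Tpsab1, never exceeded its array's median, and 1 lower, Kit (-0.59 ± 0.12, adjusted p = 0.000861).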
